A study of Homo sapiens with 12 samples.

Results

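The genes described here encode the proteins of the mitochondrial ribosome. They were chosen as the rows of the deposited count matrix whose gene symbol is MRPL or MRPS followed by a number and at most 1 letter from A to C, which gave 78 of 60623 rows. By known structure, 51 of the 78 products belong to the large subunit, 26 to the small subunit, and 1, MRPS36, belongs to neither. RNA was sequenced from NUGC-4, an established line from a human diffuse gastric cancer, whose genotype is given as wild type. It was exposed for 24 h to 1 µM IN10018, an inhibitor of focal adhesion kinase, to 1 µM crizotinib, an inhibitor of the receptor kinases MET, ALK and ROS1, to the combination of both at those doses, or were left as control, with 3 libraries in each group. All libraries came from the same line and nothing in the labels states that the 3 libraries of a group were separate cultures, so p-values measure the spread between these libraries, which may be technical. Crizotinib is spelled Criozotinib in the sample labels.

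The mitochondrial ribosome translates the small set of respiratory chain proteins that the mitochondrial genome encodes. Its rRNAs are made inside the organelle, whereas all of its proteins are encoded in the nucleus, made in the cytosol and imported, so that the particle is built from the products of both genomes. It carries many proteins with no counterpart in bacterial ribosomes. Of the 78 genes, 46 had a bacterial counterpart and 31 were specific to mitochondria. MRPS36, now also named KGD4, is a component of the 2-oxoglutarate dehydrogenase complex and was kept because the symbol rule takes it.

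Promoters of 69 of the 78 genes were found by symbol among RefSeq promoter sequences on GRCh38.p14, as 85 windows of 300 bases that run from 250 bases before to 50 bases after an annotated start. Of these, 4 are shown because they belong to genes that moved in opposite directions under the combination, MRPL12 and MRPL38 upward and MRPL3 and MRPS31 downward. These genes were picked after their values were seen. Capitals mark matches, on either strand, to 4 of the 5 motifs searched, of which the ETS motif CCGGAAG, bound by GABP, and the YY1 motif AANATGGC were met in these windows, while the E-box and the NRF1 motif were not. The CCAAT motif was searched but is not marked. The windows are chr17:81703117-81703416 on the plus strand for MRPL12, and, on the minus strand, chr17:75904835-75905134 for MRPL38, chr3:131502922-131503221 for MRPL3 and chr13:40771141-40771440 for MRPS31.
MRPL12: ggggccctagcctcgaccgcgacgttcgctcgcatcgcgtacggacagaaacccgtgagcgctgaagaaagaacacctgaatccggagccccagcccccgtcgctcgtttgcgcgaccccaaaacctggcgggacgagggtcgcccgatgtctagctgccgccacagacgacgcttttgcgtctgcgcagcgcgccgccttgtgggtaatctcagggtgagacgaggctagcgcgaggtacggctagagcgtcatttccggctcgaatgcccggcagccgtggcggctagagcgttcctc
MRPL38: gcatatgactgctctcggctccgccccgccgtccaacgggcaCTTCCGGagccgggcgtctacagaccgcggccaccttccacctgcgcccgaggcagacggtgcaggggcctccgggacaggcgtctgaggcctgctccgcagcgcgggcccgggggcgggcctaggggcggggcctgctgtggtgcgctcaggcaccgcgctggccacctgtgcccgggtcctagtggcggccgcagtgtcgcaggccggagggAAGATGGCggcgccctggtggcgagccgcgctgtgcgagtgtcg
MRPL3: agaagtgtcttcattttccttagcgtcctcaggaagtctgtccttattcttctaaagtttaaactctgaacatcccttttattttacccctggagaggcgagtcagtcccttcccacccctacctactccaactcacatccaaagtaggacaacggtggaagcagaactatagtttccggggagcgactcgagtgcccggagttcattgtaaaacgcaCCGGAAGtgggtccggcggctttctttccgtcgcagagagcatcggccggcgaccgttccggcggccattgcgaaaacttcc
MRPS31: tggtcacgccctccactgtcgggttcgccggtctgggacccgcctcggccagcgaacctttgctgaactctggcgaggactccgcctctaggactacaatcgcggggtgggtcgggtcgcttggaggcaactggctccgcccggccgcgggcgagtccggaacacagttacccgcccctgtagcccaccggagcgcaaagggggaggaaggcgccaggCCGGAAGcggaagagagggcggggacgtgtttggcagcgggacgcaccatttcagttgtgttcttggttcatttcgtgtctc

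An ETS match was present in 33 of the 85 windows, or 38.8%, against 10.3% of all 35116 RefSeq windows and 16.6% of the 15401 windows of genes tested here. A YY1 match was present in 28 windows, or 32.9%, against 6.58% of all windows and 9.09% of those of tested genes. The NRF1 motif was present in 10 windows, or 11.8%, against 5.78% of all and 9.7% of those of tested genes. The E-box CACGTG was found in 10.6% of the windows, against 7.26% of all windows and 9.27% of those of tested genes, and the CCAAT motif in 32.9%, against 34.6% and 34.4%. All 5 motifs were searched on both strands and counted separately, so that 1 window can hold several. Members that later proved higher under the combination had an ETS match in 16 of 38 windows, and members that proved lower had one in 8 of 20. The MRPL38 promoter held 1 ETS and 1 YY1 match, MRPL3 and MRPS31 held 1 ETS match each, and MRPL12 held none of the motifs marked. A match describes letters in the window and is not evidence of a bound factor.

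Library totals ran from 13691844 to 20489708 reads. Crizotinib replicate 2 stood apart from the other crizotinib libraries on the first principal component (67.2% of variance), with a score of 57.8, against -4.61 and 10.3 for replicates 1 and 3. The combination libraries scored 56.3, 91.4 and 37.8, the IN10018 libraries -32.8, -30.6 and -36.2, and the control libraries -54.7, -41.9 and -52.8. Among 7 epithelial markers, KRT8 averaged 1510 and KRT18 725 reads per 1e6 scaled reads (CPM), EPCAM averaged 17.6 CPM, ELF3 was at or below 0.202 CPM in every library, and KRT19 had no reads. The summed epithelial markers spanned 1670 to 1840 CPM with IN10018, 1790 to 3130 CPM with crizotinib and 2350 to 3570 CPM with the combination, against 1970 to 2100 CPM in control. A description label mentions adipogenic differentiation, so 6 adipocyte markers were also read. ADIPOQ and LPL had no reads, and the summed list, nearly all of it FABP4, spanned 61.3 to 70.6 CPM with IN10018, 69.9 to 117 CPM with crizotinib and 105 to 133 CPM with the combination, against 68.4 to 77.2 CPM in control. The fibroblast list was nearly all COL3A1, at a mean of 5760 CPM, while each other marker in it averaged at most 1.93 CPM. Its sum spanned 5160 to 6110 CPM with IN10018 and 5180 to 6650 CPM with crizotinib. With the combination it spanned 5060 to 5990 CPM, against 5670 to 6240 CPM in control. Of the 5 immune markers CD3E had no reads, and their sum, most of it CD14, spanned 17.8 to 20.6, 28.6 to 33.3 and 28.4 to 34.0 CPM with IN10018, crizotinib and the combination, against 19.1 to 23.9 CPM in control. The part of these lists in the results below was not tested.

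Of the 78 genes, 77 passed the filter on low counts and were tested among 17096 genes. The untested gene was MRPL53, which had no reads in any library, so that its level was below a floor of 3 reads per library, or 0.146 to 0.219 CPM. MRPL53 shares 45.2% of its exon length with CCDC142 on the same strand, and its pseudogene row MRPL53P1 held 163 reads. Together the 78 rows held 587089 reads, and 80 further rows with an MRP symbol, mostly pseudogenes and antisense genes, held 5906 reads, or 1.01% as many. Levels per length were compared as CPM per kilobase of merged exons. On that scale the tested members had a median of 12.6, against 3.68 over all tested genes and 5.43 over tested protein-coding genes. The highest were MRPL15 with 68.8, MRPS18B with 63.0 and MRPS16 with 48.7 CPM per kilobase. After MRPL53, the lowest were MRPS24 with 0.462 and MRPL46 with 0.937 CPM per kilobase. On the same strand, MRPS24 shares 23.2% of its exon length with URGCP-MRPS24, which held 3 reads. MRPL46 likewise shares 11.3% with AC013489.1, which held 5 reads.

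Summed over all 78 genes, the libraries with crizotinib overlapped the control libraries, while their ratio of large to small subunit RNA lay below that of control. The summed level was 2729, 2686 and 2834 CPM in the IN10018 libraries, 2838, 3241 and 3001 CPM in the crizotinib libraries and 3185, 3581 and 2912 CPM in the combination libraries, against 2941, 2842 and 3030 CPM in the control libraries. The IN10018 libraries lay below every control library, and the crizotinib and combination libraries overlapped the controls. The ratio of large to small subunit RNA was 1.63, 1.61 and 1.62 in IN10018, 1.58, 1.43 and 1.49 in crizotinib and 1.43, 1.37 and 1.43 in the combination, against 1.68, 1.63 and 1.67 in control. Every crizotinib and combination library was below every control library in this ratio, with means of 1.502 ± 0.0776 for crizotinib and 1.41 ± 0.0352 for the combination, against 1.66 ± 0.0277 for control (SD, n = 3 each). A 2-sided exact permutation test gave p = 0.1 for each, the smallest value that 3 against 3 libraries allow. Without the 6 members whose mean level differed most between combination and control, MRPL28, MRPS5, MRPS18B, MRPL3, MRPL13 and MRPL19, the ratio was 1.59, 1.60 and 1.57 in the combination, against 1.60, 1.56 and 1.58 in control. Those 6 were picked after the values were seen, so this is a description. In bulk RNA, fewer cells that express a gene and less RNA per cell cannot be told apart.

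**Figure D1:**
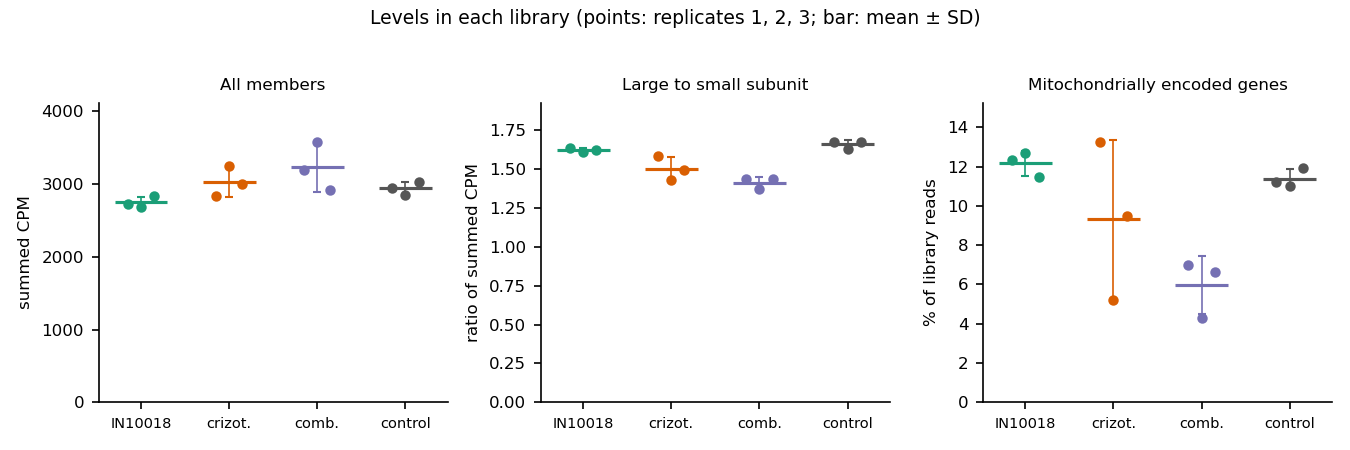
Levels in each of the 12 libraries, with points for replicates 1 to 3 and bars for the group mean ± SD. Left, CPM summed over the 78 genes. Middle, ratio of large to small subunit CPM, where the crizotinib and combination libraries all lie below the control libraries. Right, percent of library reads on all mitochondrially encoded genes, taken as symbols starting with MT-. There the combination libraries are at 4.28 to 6.99% and the control libraries at 11 to 11.9%.

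With all 12 libraries in the fit, no mitochondrial ribosomal protein gene was called for IN10018 alone at an adjusted p under 0.05. By edgeR, 0 of 77 were called, with 0.503% of all tested genes called in either direction, and DESeq2 and limma-voom also called 0. At an unadjusted p under 0.05 there were 3, MRPS25, MRPL38 and MRPS24. The share of all tested genes at that looser threshold was not counted. MRPS25, a small subunit protein, had 46.3, 49.3 and 46.1 CPM with IN10018, against 37.4, 42.5 and 35.6 CPM in control. MRPL38, a mitochondrion-specific protein of the large subunit's central protuberance, had 4.57, 4.44 and 4.61 CPM with IN10018, against 2.69, 3.87 and 1.97 CPM in control. Both genes were higher in all 3 IN10018 libraries than in any control library, but their edgeR adjusted p values were 0.341 and 0.384. MRPS24, the least abundant tested member, had 10 to 27 reads per IN10018 library and 20 to 40 reads per control library, and these ranges overlapped. Of the 77 members, 14 had a positive log2 change and the others a negative one. The median was -0.09, against -0.02 over all tested genes and -0.06 over tested protein-coding genes. Groups did not overlap for 5 members above and 17 below control, or 6.49% and 22.1%, against 14% and 18.9% of all tested genes.

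The number called with IN10018 depended on which libraries entered the fit, which set the filter and the scaling as well as the spread. The fit of all 12 libraries shared its estimate of spread over the 4 groups, whose spread was unequal. The SD of the first principal component score was 6.89 in control and 2.8 in IN10018. It was 32.6 in crizotinib and 27.2 in the combination. The part of this in the IN10018 calls was not tested. When only the 6 IN10018 and control libraries entered the fit, 2 members were called higher and 5 lower, with 8.34% of all genes called higher and 5.58% lower. The higher ones were MRPS25 (log2 change 0.33 ± 0.07 SE) and MRPL38 (0.72 ± 0.21). The lower ones were MRPL41 (-0.66 ± 0.15), MRPL49 (-0.30 ± 0.08), MRPS26 (-0.22 ± 0.08), MRPL37 (-0.21 ± 0.05) and MRPS35 (-0.19 ± 0.06). MRPL41, another mitochondrion-specific large subunit protein, had 4.20, 3.78 and 5.09 CPM with IN10018, against 7.32, 7.31 and 6.43 CPM in control, with no overlap.

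With crizotinib alone, members were called in both directions, each at a smaller share than among all tested genes. By edgeR 12 of 77 members were called higher and 11 lower, or 15.6% and 14.3%, against 20% and 17.6% of all tested genes. The median log2 change was 0.09 for members and 0.08 for all tested genes. Of tested protein-coding genes, 18.1% were called higher and 22.9% lower, with a median of -0.02. Among the higher members were MRPL38, MRPL55, MRPS12, MRPL28, MRPL20, MRPL24, MRPS5 and MRPS18B. Among the lower ones were MRPS24, MRPL13, MRPS31, MRPL19, MRPL3, MRPL42, MRPL49 and MRPS22. Groups did not overlap for 26 members above control and 17 below, or 33.8% and 22.1%, against 26.3% and 25.1% of all tested genes.

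MRPS12, the decoding centre protein of the small subunit, had 19.5, 38.6 and 25.04 CPM with crizotinib, against 16.2, 15.8 and 16.5 CPM in control. Its log2 change was 0.78 ± 0.25 (SE, edgeR adjusted p = 0.0276). MRPL28, a large subunit protein with a bacterial counterpart, had 86.0, 159 and 98.3 CPM, against 69.6, 66.8 and 76.4 CPM in control, a log2 change of 0.69 ± 0.23 (edgeR adjusted p = 0.0302). Without crizotinib replicate 2 the log2 change was 0.46 for MRPS12 (edgeR adjusted p = 0.137) and 0.38 for MRPL28 (edgeR adjusted p = 0.153). Neither was called without any 1 of the control libraries, with edgeR adjusted p of 0.0711 to 0.0912 for MRPS12 and 0.0797 to 0.0855 for MRPL28, or under the offset for GC content and length described below, at 0.30 and 0.22. In both genes every crizotinib library exceeded every control library, and replicate 2 was far above the other 2. MRPS15, a small subunit protein with a bacterial counterpart, had the smallest p of the higher genes, at 53.8, 63.0 and 55.9 CPM with crizotinib, against 44.5, 40.5 and 42.6 CPM in control (log2 change 0.44 ± 0.10, edgeR adjusted p = 0.00708).

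On the lower side, MRPL19, which lies at the subunit interface, had 72.9, 44.6 and 65.3 CPM with crizotinib, against 101, 92.6 and 104 CPM in control. Its log2 change was -0.70 ± 0.16 (edgeR adjusted p = 0.00716). MRPS31, a mitochondrion-specific small subunit protein, had 13.9, 8.09 and 12.3 CPM, against 18.5, 17.1 and 20.7 CPM in control (log2 change -0.72 ± 0.17, edgeR adjusted p = 0.00821). Replicate 2 was the lowest crizotinib library for both genes, and no crizotinib library reached the control range. MRPS24 had the largest negative value, -0.95 ± 0.34, but from 14 to 17 reads per crizotinib library.

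The crizotinib counts depended on single libraries, as did the share of all genes called. Without control replicate 1 there were 1 higher and 2 lower, with 17.7% of all genes called in either direction. Without control replicate 2 there were 3 higher and 7 lower, with 27.9% of all genes, and without control replicate 3 there were 1 higher and 7 lower, with 20.9%. Without crizotinib replicate 2 there were 2 higher and 4 lower, with 20.9% of all genes, and without crizotinib replicate 1 there were 25 higher and 13 lower, with 45.4%. Scaling also moved the split. With library totals in place of TMM, 23 were higher and 5 lower (28.2% and 11.4% of all genes), and the median of all genes moved to 0.21.

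The combination of both drugs gave the largest changes. By edgeR 34 of 77 members rose and 21 fell, or 44.2% and 27.3%, against 33.7% and 29.1% of all tested genes, and 22 were not called. The median log2 change was 0.09 for members and 0.10 for all tested genes. Over tested protein-coding genes the median was -0.06, with 30.6% called higher and 36.5% lower. Of the 50 large subunit genes tested, 22 rose and 11 fell, and of the 26 small subunit genes 12 rose and 9 fell. Of the genes with a bacterial counterpart, 21 of 46 rose and 10 fell, and of the mitochondrion-specific genes 13 of 30 rose and 10 fell. The 3 combination libraries lay above the 3 control libraries for 34 members and below them for 27, against 37.8% and 33.2% of all tested genes. With library totals as the scale 40 were called higher and 14 lower (41.6% and 22% of all genes), and the median of all genes was then 0.27.

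**Figure D2:**
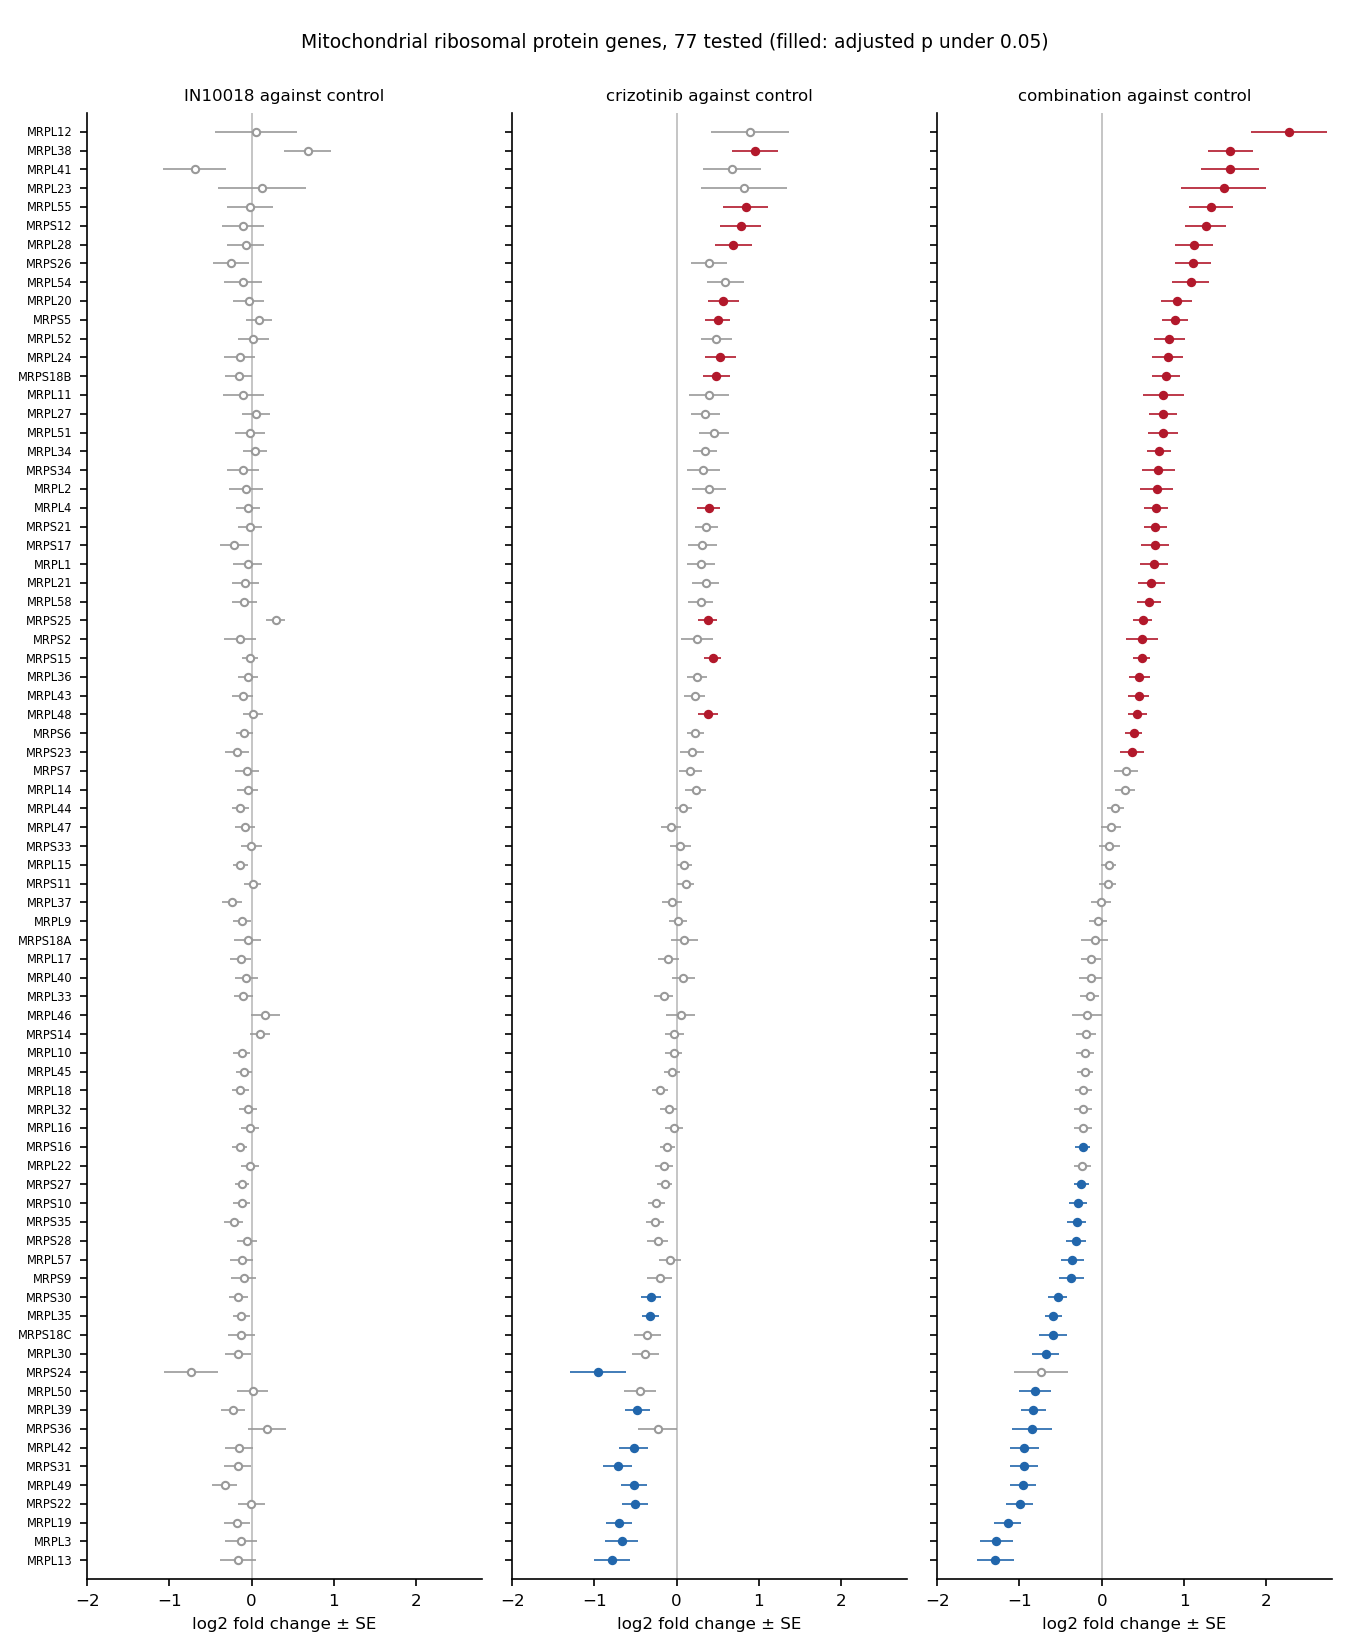
Log2 fold change ± SE of each of the 77 tested members against control, with IN10018 on the left, crizotinib in the middle and the combination on the right, in the order of the combination. Filled points passed an adjusted p under 0.05 in edgeR, red for higher and blue for lower. The number of filled points is 0, 23 and 55 from left to right.

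MRPL12, the stalk protein through which translation factors are recruited and which has been reported to bind the mitochondrial RNA polymerase, showed the largest increase. It had 3.15, 3.68 and 4.96 CPM with IN10018, 4.56, 11.6 and 4.77 CPM with crizotinib and 14.96, 32.5 and 7.70 CPM with the combination, against 3.21, 4.17 and 3.88 CPM in control. The combination libraries were all above control and differed among themselves more than any other group. Its log2 change against control was 2.28 ± 0.46 (SE, edgeR adjusted p = 0.000837), and 1.57 without combination replicate 2. MRPL12 lies at chr17:81703357-81707526 on GRCh38 and shares 68.2% of its exon length with the same-strand gene AC139530.2, which has a row of its own with no reads.

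MRPL38 had 4.57, 4.44 and 4.61 CPM with IN10018, 4.08, 7.29 and 5.02 CPM with crizotinib and 7.72, 11.02 and 6.48 CPM with the combination, against 2.69, 3.87 and 1.97 CPM in control. All 9 treated libraries were above all 3 controls. The log2 change was 1.57 ± 0.27 for the combination (edgeR adjusted p = 0.000327) and 0.95 ± 0.28 for crizotinib (edgeR adjusted p = 0.0189). Its gene, chr17:75898643-75905413, shares 37.5% of its exon length with AC087289.3 on the same strand, which held 61 reads against 1037 for MRPL38.

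MRPL41 had 4.20, 3.78 and 5.09 CPM with IN10018, 5.80, 18.3 and 9.28 CPM with crizotinib and 17.1, 31.1 and 14.1 CPM with the combination, against 7.32, 7.31 and 6.43 CPM in control. The combination libraries were above control, the IN10018 libraries below it, and the crizotinib libraries on both sides. Its log2 change with the combination was 1.56 ± 0.35 against control (edgeR adjusted p = 0.00174) and 2.26 ± 0.37 against IN10018 (edgeR adjusted p = 0.000462).

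MRPS12 had 35.2, 53.7 and 27.9 CPM with the combination, against the control values given above, a log2 change of 1.27 ± 0.25 (edgeR adjusted p = 0.000743). The gene overlaps SARS2, the mitochondrial seryl-tRNA synthetase gene, on the opposite strand over 16.3% of its exon length. SARS2, picked after its value was seen, was also higher, by 0.74 ± 0.22 (edgeR adjusted p = 0.00963). MRPL28 had 138, 212 and 112 CPM with the combination, a log2 change of 1.12 ± 0.23. MRPL55, a large subunit protein with a bacterial counterpart, had 21.0, 38.4 and 15.7 CPM, against 9.87, 10.1 and 9.89 CPM in control, a log2 change of 1.33 ± 0.27. MRPS5, which lines the mRNA entrance of the small subunit, had 156, 208 and 139 CPM, against 87.7, 92.4 and 91.2 CPM in control, a log2 change of 0.89 ± 0.16. In all 4 genes each combination library exceeded each control library, and replicate 2 was the highest.

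MRPS26, a mitochondrion-specific small subunit protein, had 22.9, 24.97 and 27.5 CPM with IN10018, 29.3, 49.05 and 39.3 CPM with crizotinib and 58.2, 89.9 and 45.3 CPM with the combination, against 29.2, 29.7 and 30.99 CPM in control. The IN10018 libraries were all below control and the combination libraries all above it. Its log2 change with the combination was 1.11 ± 0.22 (edgeR adjusted p = 0.000724), but its sign turned, to -0.12, under the offset for GC content and length described below.

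MRPL23, which sits at the peptide exit, was uneven within every group. It had 4.57, 13.8 and 4.47 CPM with IN10018, 7.28, 21.8 and 8.58 CPM with crizotinib and 17.4, 30.02 and 12.5 CPM with the combination, against 4.56, 4.95 and 11.5 CPM in control. One control and 1 IN10018 library were far above the other 2 of their group. Its log2 change with the combination was 1.48 ± 0.52 (edgeR adjusted p = 0.0222), and adjusted p was 0.112 without combination replicate 2, 0.081 without control replicate 1 and 0.0832 without control replicate 2. It was not called by DESeq2 (adjusted p = 0.0565) or under the offset for GC content and length, at 0.73 (edgeR adjusted p = 0.237).

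Genes of both subunits fell. MRPL13, a large subunit protein with a bacterial counterpart, had 89.1, 84.8 and 93.8 CPM with IN10018, 77.6, 36.5 and 60.6 CPM with crizotinib and 47.3, 29.1 and 46.0 CPM with the combination, against 102, 95.3 and 103 CPM in control. MRPL3, which reaches towards the peptidyl transferase centre, had 102, 104 and 101 CPM with IN10018, 87.4, 45.5 and 78.4 CPM with crizotinib and 48.9, 35.1 and 54.3 CPM with the combination, against 112, 106 and 118 CPM in control. Both genes were below control in every treated library, and crizotinib replicate 2 lay within the range of the combination libraries for each. With the combination the log2 change was -1.29 ± 0.22 for MRPL13 (edgeR adjusted p = 0.000307) and -1.28 ± 0.20 for MRPL3 (edgeR adjusted p = 0.000179). MRPL3 lies at chr3:131462212-131502983 on the minus strand.

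MRPL19 had 49.3, 36.2 and 48.8 CPM with the combination, a log2 change of -1.14 ± 0.16 (edgeR adjusted p = 0.000113). MRPS22, a mitochondrion-specific small subunit protein, had 16.8, 12.7 and 16.9 CPM, against 29.7, 31.1 and 32.1 CPM in control, a log2 change of -0.999 ± 0.17 (edgeR adjusted p = 0.00024). MRPL49, a mitochondrion-specific large subunit protein, had 18.9, 16.3 and 20.6 CPM, against 39.1, 33.4 and 36.1 CPM in control, a log2 change of -0.96 ± 0.16 (edgeR adjusted p = 0.000222). These 3 genes had combination values that were close to each other and well below control. MRPS31 was nearly equal in the 3 combination libraries, at 9.80, 9.64 and 9.84 CPM, with a log2 change of -0.94 ± 0.17. MRPL42 fell by 0.94 and MRPS36, the dehydrogenase component, by 0.85 on the log2 scale.

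**Figure D3:**
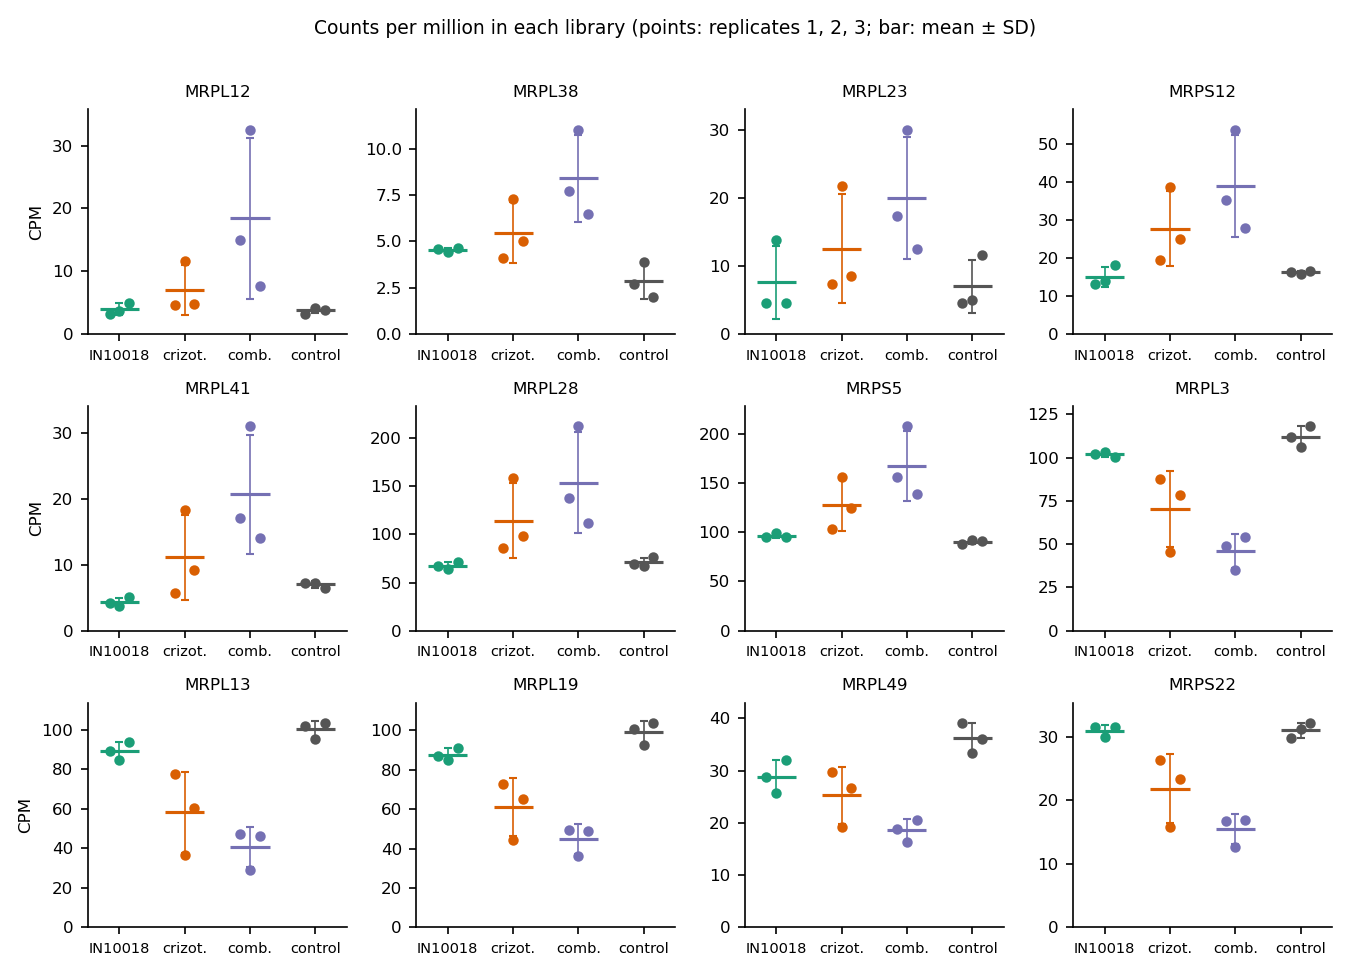
CPM of 12 members in each library, with points for replicates 1 to 3 and bars for the group mean ± SD, on axes that start at 0. MRPL12, MRPL38, MRPL23, MRPS12, MRPL41, MRPL28 and MRPS5 have their highest group mean in the combination, and MRPL3, MRPL13, MRPL19, MRPL49 and MRPS22 their lowest.

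Members with roles beyond the ribosome's core or with known handling moved in different directions. MRPL58, also named ICT1, is a peptidyl-tRNA hydrolase built into the large subunit, and it rose by 0.58 ± 0.15 on the log2 scale with the combination, but was not called under the offset for GC content and length, at 0.02. MRPL57 fell by 0.36 (SE 0.14). MRPL32, which the m-AAA protease matures before assembly, had a log2 change of -0.23 ± 0.11 (edgeR adjusted p = 0.0818). MRPL45, which anchors the ribosome to the inner membrane at the peptide exit, had -0.21 ± 0.10 (edgeR adjusted p = 0.0821), and MRPL44, a relative of RNase III, had 0.16 ± 0.10 (edgeR adjusted p = 0.175). None of these 3 passed the test.

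The 3 genes of the MRPS18 family, whose products hold different positions on the ribosome, differed in their values. MRPS18B, a small subunit protein, had 149, 206 and 134 CPM with the combination, against 99.02, 91.8 and 94.1 CPM in control, and rose by 0.78 ± 0.17 on the log2 scale. MRPS18C, the counterpart of the bacterial protein, had 7.60, 5.76 and 8.98 CPM, against 10.99, 11.7 and 11.2 CPM in control, and its log2 change was -0.60 ± 0.17. MRPS18A, found in the large subunit, had a log2 change of -0.09 ± 0.17 and was not called. MRPS18A and MRPS18C share 47% and 40.2% of their exon length with RSPH9 and ABRAXAS1 on the opposite strand, and the strand setting of the counting was not given. MRPS30, also a large subunit protein by structure, had a log2 change of -0.54 ± 0.12 with the combination. Under the offset for GC content and length neither MRPS18C, at -0.0066, nor MRPS30, whose sign turned to 0.24, was called.

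The crizotinib and combination comparisons share their control libraries, so their counts are not independent of each other. Against IN10018, the combination raised 35 members and lowered 15, with 29.7% of all tested genes higher and 27.5% lower. The median log2 change was 0.20, against 0.04 over all tested genes. For tested protein-coding genes, 30.5% were higher, 33.4% were lower and the median was -0.03. The largest rises there were in MRPL41, MRPL12 (2.23 ± 0.46), MRPS12 (1.37 ± 0.25) and MRPS26 (1.36 ± 0.22), and the largest falls in MRPL3 (-1.15 ± 0.20), MRPL13 (-1.13 ± 0.22) and MRPS36 (-1.03 ± 0.24).

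A direct comparison of the combination with crizotinib called none of the 77 members by edgeR, with 0.0117% of all tested genes called. At an unadjusted p under 0.05 there were 17 members, but the share of all tested genes at that threshold was not counted. DESeq2 and limma-voom also called 0. The values of smallest p were those of MRPS26 (log2 change 0.72 ± 0.22), MRPL12 (1.39 ± 0.43), MRPL3 (-0.61 ± 0.20), MRPS22 (-0.49 ± 0.17), MRPL49 (-0.44 ± 0.16) and MRPL19 (-0.44 ± 0.16), each with an edgeR adjusted p of 0.213. Same-numbered libraries of these groups deviated together, mainly at replicate 2 (correlation 0.624), so pairing by replicate number was also fitted. That pairing was inferred from these same data and is not stated in the labels. With the replicate block in the fit over all 12 libraries the count stayed at 0, with 0.55% of all genes called. With the block in a fit of the 6 crizotinib and combination libraries, chosen after seeing the data, 20 members were called higher and 8 lower, with 23.1% of all genes called, and the log2 change was 1.35 ± 0.16 for MRPL12 (edgeR adjusted p = 5.94e-06) and -0.58 ± 0.11 for MRPL3 (edgeR adjusted p = 0.000968). Without crizotinib replicate 2, and with no block, 20 were higher and 13 lower, with 32.3% of all genes called. With the block and the offset for GC content and length described below, within the 6 libraries, 8 were higher and 4 lower, with 10.7% of all genes called.

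The interaction of the 2 drugs asks whether the combination differs from the sum of the single-drug log2 changes. It was called for 0 of 77 members by edgeR, with 0.0702% of all tested genes called. Another count, of members with an unadjusted p under 0.05, gave 4, and the share of all tested genes there was not counted. DESeq2 and limma-voom also called 0. The 4 were MRPS26 (0.97 ± 0.31), MRPL41 (1.58 ± 0.51), MRPS36 (-0.80 ± 0.34) and MRPS17 (0.55 ± 0.24), with edgeR adjusted p values of 0.432, 0.448, 0.6 and 0.6. Without crizotinib replicate 2, 3 members were called in each direction, with 4.61% of all genes called.

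The direction in which a member moved followed the GC content of its transcript in the crizotinib and combination groups. GC content was taken from the longest transcript of each gene. Across the 77 members, which share their libraries, Spearman's rho between GC content and log2 change was 0.074 for IN10018, 0.71 for crizotinib and 0.709 for the combination. Across 16866 tested genes with a GC value the same rho was -0.012, 0.481 and 0.524, so the gradient ran through the whole transcriptome. For the 68 tested members with a RefSeq promoter, the rho of the combination change was 0.254 with promoter GC content and 0.674 with transcript GC content.

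The members were also split into 3 ranges of GC content and set beside all tested genes of the same range in the combination. In the low range, 33.5 to 43.8% GC, 2 of 26 members were higher and 17 lower with a median of -0.42, and all tested genes in that range had 11.3% higher, 52.4% lower and a median of -0.46. In the high range, 51.8 to 71.9% GC, 20 of 26 were higher and none lower with a median of 0.69, and all genes in that range had 58.1% higher, 9.11% lower and a median of 0.61. The middle range, 44.2 to 51.7% GC, had 12 of 25 higher and 4 lower with a median of 0.29, against 26.8% higher, 30.1% lower and a median of -0.01 over all genes in that range. MRPL12 and MRPL38 had 64.6% GC and MRPL41 71.9%, the highest of the family, whereas MRPL13 had 33.5%, the lowest.

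**Figure D4:**
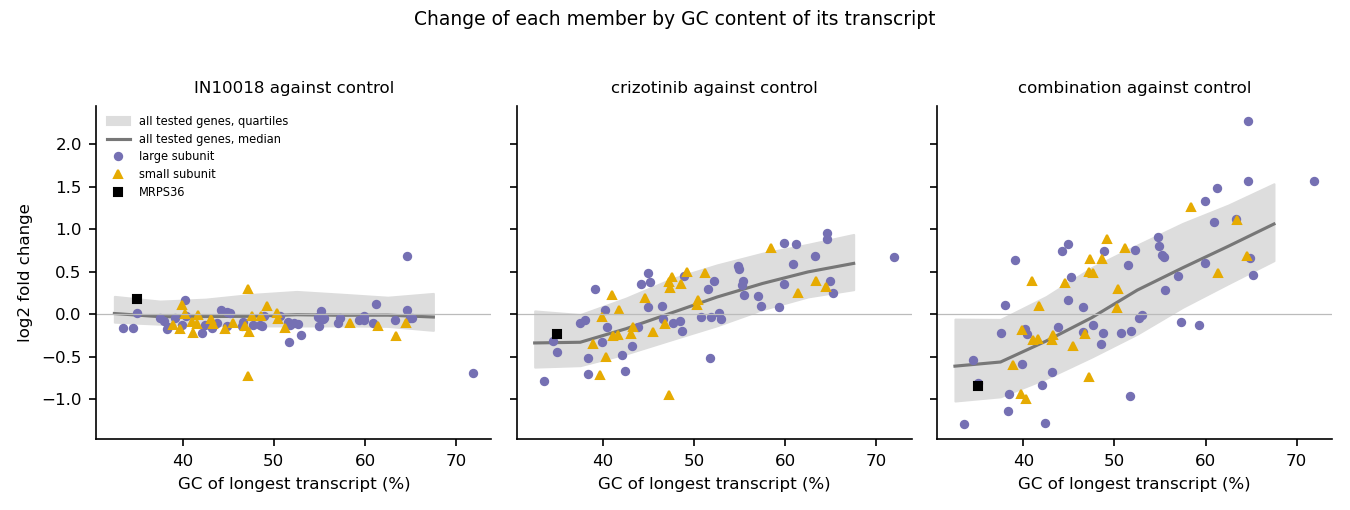
Log2 fold change against control of the 77 members by GC content of the longest transcript, for IN10018 (left), crizotinib (middle) and the combination (right). Circles are large subunit genes, triangles small subunit genes and the square MRPS36. Grey line and band are the median and quartiles of all tested genes in bins of 5% GC. Members rise with GC content along the grey line for crizotinib and the combination and lie flat for IN10018.

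When an offset for GC content and exon length was fitted per library, fewer members kept their call. The gradient with GC content differed between groups, so this offset also removed any treatment change that followed GC content. Whether a call lost or reversed under the offset came from treatment or from a technical bias was not tested. For crizotinib, 10 were higher and 12 lower, with 19% and 13.1% of all genes, and 12 of the 23 earlier calls held in the same direction. MRPS30 and MRPL35 changed sign, to 0.20 and 0.01. For the combination, 23 were higher and 25 lower, with 30% and 25.4% of all genes, and 31 of the 55 earlier calls held. Another 9 of the 55 changed sign, and 3 of these were called the opposite way. Against IN10018, 28 were higher and 20 lower under the offset, with 47.1% of all genes called, 30 of 50 calls held and 8 changed sign. Of those 8, MRPL14, MRPL36 and MRPS34 were called lower under the offset and MRPS30 was called higher.

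The size of a change moved in both directions under the offset. In the combination, the higher calls that held under the offset included MRPL12 (offset log2 change 0.92), MRPL38 (0.78), MRPS12 (0.52), MRPL55 (0.43) and MRPL28 (0.29), each smaller than without it. MRPS5 (1.06) and MRPS6 (0.89) were larger under the offset, as were MRPL52 (1.03), MRPL27 (0.97) and MRPL1 (0.89), which were picked after their values were seen. Among the lower calls that held were MRPL49 (-1.12), MRPL3 (-1.04), MRPS31 (-0.69), MRPL13 (-0.60), MRPL19 (-0.54) and MRPS22 (-0.44). MRPL41 was no longer called, at 0.17 (edgeR adjusted p = 0.408), and MRPL42 was not either, at -0.20. MRPS26 changed sign to -0.12 (edgeR adjusted p = 0.374). The other members that changed sign without a call were MRPL4 (-0.11), MRPL21 (-0.06), MRPL54 (-0.03), MRPS27 (0.22) and MRPS30 (0.24). MRPL36, MRPS34 and MRPS2 were called lower under the offset, at -0.73, -0.58 and -0.34, where they had been called higher without it, at 0.46, 0.69 and 0.49.

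**Figure D5:**
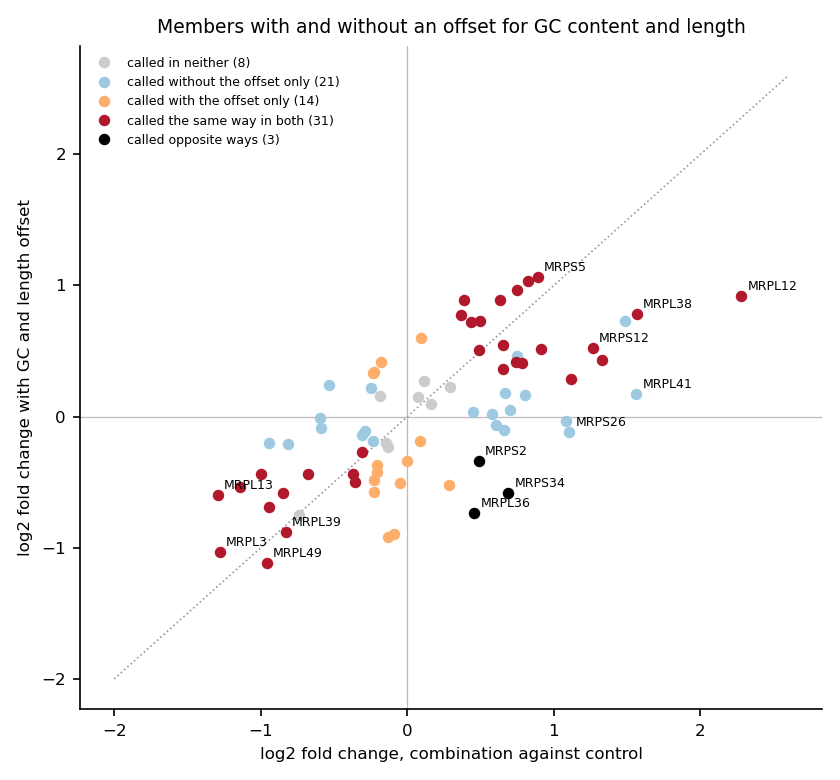
Log2 fold change of the 77 members in the combination against control, without (horizontal) and with (vertical) an offset for GC content and exon length. Each point is 1 member, coloured by its calls, and the dotted line marks equal values. Of the members, 31 were called the same way in both, 21 only without the offset, 14 only with it, 3 in opposite ways and 8 in neither.

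Of the 5 structural proteins of the mitochondrial ribosome that carry other names, 3 rose and 1 fell. With the combination, GADD45GIP1 (log2 change 1.64 ± 0.31), AURKAIP1 (1.28 ± 0.29) and CHCHD1 (0.99 ± 0.19) rose, PTCD3 fell (-0.51 ± 0.11) and DAP3, the GTP-binding protein of the small subunit, was not called (0.06 ± 0.09). Their median was 0.99. With crizotinib, GADD45GIP1 (0.91 ± 0.30) and CHCHD1 (0.54 ± 0.19) rose and PTCD3 fell (-0.35 ± 0.11).

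Genes that act with the mitochondrial ribosome were counted from lists, beside the 33.7% higher and 29.1% lower of all tested genes. Values of these and the following lists, and of the differently named proteins above, are without the offset for GC content and length. Their GC content was not set beside their changes, although the gradient with GC content ran across all tested genes. Of 13 translation factors, 3 rose and 7 fell with the combination. Among those that fell were GFM1 (-1.04 ± 0.18), GFM2 (-1.29 ± 0.17), GUF1 (-0.87 ± 0.14) and MRRF (-0.82 ± 0.16). Of 26 ribosome assembly and rRNA maturation factors, 11 rose and 7 fell, with the assembly GTPases MTG1 (1.65 ± 0.22) and MTG2 (0.97 ± 0.15) and the rRNA methyltransferase MRM1 (1.31 ± 0.20) higher and NGRN (-0.88 ± 0.15) lower. Of 17 aminoacyl-tRNA synthetases, which charge the tRNAs used in the organelle, 2 rose and 9 fell, including LARS2 (-1.07 ± 0.16), RARS2 (-0.92 ± 0.15) and MARS2 (-1.51 ± 0.27).

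The RNAs made inside mitochondria fell as a list. Of 15 mitochondrially encoded mRNAs and rRNAs, none rose and 14 fell with the combination, with a median of -1.31, whereas none was called with IN10018 or crizotinib alone, where the medians were -0.03 and -0.43. The largest falls were in MT-ATP8 (-3.25 ± 0.58), MT-ND4L (-2.13 ± 0.39), MT-ND2 (-1.996 ± 0.42) and MT-ND4 (-1.66 ± 0.36). Both rRNAs of the mitochondrial ribosome fell, MT-RNR1 by 0.53 and MT-RNR2 by 0.68 on the log2 scale. None of the 15 was called when the combination was compared with crizotinib. Reads on all genes with a symbol starting with MT-, a wider set than the 15, were also summed. They made up 12.3, 12.7 and 11.5% of the IN10018 libraries and 13.3, 5.21 and 9.46% of the crizotinib libraries. In the combination libraries they made up 6.99, 4.28 and 6.62%, against 11.2, 11 and 11.9% of the control libraries. With this wider set left out before scaling, 33 members were called higher and 23 lower in the combination. In that fit 62.7% of all genes were called either way, and 54 of the 55 member calls held.

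Of 7 genes for mitochondrial transcription and mRNA stability, 1 rose with the combination, the RNA polymerase POLRMT (0.85 ± 0.21), and 3 fell, TFB2M (-1.71 ± 0.25), TFAM (-0.9999 ± 0.15) and LRPPRC (-0.64 ± 0.10). Of 9 regulators of mitochondrial biogenesis, 1 rose, ESRRA (0.998 ± 0.14), and 5 fell, among them GABPA (-1.42 ± 0.25) and GABPB1 (-0.71 ± 0.14), the subunits of the ETS factor GABP, and MYC (-0.98 ± 0.18). YY1, picked after its value was seen because its motif is common in these promoters, fell by 0.36 (SE 0.09). Of 10 mitochondrial proteases, 2 rose and 3 fell, with SPG7 (1.18 ± 0.16) and PMPCA (0.58 ± 0.15) higher and YME1L1 (-0.93 ± 0.13) and CLPX (-0.79 ± 0.13) lower. Of 22 general mitochondrial genes, 5 rose and 9 fell, with VDAC1 (-0.73 ± 0.12), TOMM70 (-0.68 ± 0.11) and the citrate synthase gene CS (-0.95 ± 0.16) lower. Among 77 genes of the cytosolic ribosome, 52 rose and 7 fell, with a median of 0.40.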

How the data were processed

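RNA was extracted with TRIzol and made into libraries with a directional kit, per the labels' protocols. The authors used FastQC, Trimmomatic, HISAT2 on hg38 (GRCh38), featureCounts and DESeq2, per the submitters' processing notes, which give no order. Versions, annotation release and strand setting are not given in the sources used here. The deposited matrix holds raw counts per gene with no normalization, 60623 rows by 12 libraries.

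A single edgeR model (version 4.0.16, R 4.3.3) covered the 4 groups. Libraries were scaled by TMM, filterByExpr left 17096 genes, and robust quasi-likelihood F tests were run. A gene was called when its p, adjusted by Benjamini-Hochberg across all tested genes, was under 0.05, and members were counted afterwards. CPM is the count per 1e6 reads of the TMM-scaled total. SE is the absolute log2 fold change divided by the square root of F. Total reads of 13691844 to 20489708 per library limit precision, and the common biological coefficient of variation was 0.139. GENCODE 29 on GRCh38 supplied positions, exon lengths merged per gene and, for 98.65% of tested genes, GC content, and promoters came from RefSeq on GRCh38.p14. Members and lists were chosen with earlier results of these data known, so no set test was made and no list is independent evidence. Of the members, 16 share exon bases with another gene on the same strand, where the counting could split or drop reads.

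Named members are up to 8 called members with the largest changes each way and up to 6 with the smallest p in each comparison, the 3 highest and 3 lowest by level per length, a list fixed by role, and any counted set of 5 or fewer. Other genes named are the 5 ribosomal proteins with other names and up to 4 of each list with the smallest p. Values of a few genes that this rule names are not reported here. Same-numbered crizotinib and combination libraries deviated together from their group means, with correlations of 0.218, 0.624 and 0.275. Crizotinib replicate 1 correlated more with combination replicate 3, at 0.422, than with combination replicate 1. The replicate numbers were taken to pair the same-numbered libraries from these same data, and pairing beyond replicate 2 is uncertain. What the numbers stand for is not stated.

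Alternatives were other scalings and filters, limma-voom (limma 3.58.1), the DESeq2 test (version 1.42.0), only the 6 libraries compared, the replicate block, an offset for GC content and length fitted per library, the scaling without mitochondrially encoded genes, and each library left out in turn. The scripts were tested on simulated data.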

Additional observations from a re-analysis of the deposited data

How the results depend on the processing

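Combination counts against control and against IN10018 stayed within 1.5 times under every alternative run. Crizotinib counts against control did not. They were 20 higher with no filter (18.6% of all genes called either way) and 7 higher with only the 6 libraries compared (31.1%). Library totals gave 23 higher and 5 lower (39.6%), and DESeq2 gave 17 lower (18.3%). Percentages in brackets here and below are of all genes tested in that fit, called either way. Leaving out 1 library gave 1 to 25 higher and 2 to 13 lower (17.7% to 45.4%). The combination against crizotinib, with 0 called each way, gave 5 higher and 6 lower with no filter (4.89%). It gave 16 and 10 without both libraries numbered 2 (25.2%) and 20 and 8 with the replicate block within the 6 libraries compared (23.1%). That block with the GC and length offset gave 8 and 4 (10.7%). Leaving out 1 library gave 0 to 20 higher and 0 to 13 lower (0.0113% to 32.3%). The interaction gave 3 higher with no filter (0.838%) and 11 higher and 4 lower without both libraries numbered 2 (11.1%). With 1 library left out it gave 0 to 3 higher, 0 to 3 lower (0.0113% to 4.61%) and a median of 0.035 to 0.18. IN10018 against control gave 2 higher and 5 lower with only the 6 libraries compared (13.9%). It gave 1 and 2 without both libraries numbered 2 (5.01%), and 1 lower with no filter (1.06%).

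The replicate block over all 12 libraries gave 14 higher and 13 lower for crizotinib, with 43.3% of all genes called. It changed no count, these included, by more than 1.5 times. Median log2 changes moved with the scale. With library totals they were 0.27 and 0.32 for the combination against control and IN10018, 0.22 for crizotinib and -0.028 for IN10018, and -0.13 for IN10018 with DESeq2 size factors. With the GC and length offset they were -0.0066, 0.0794 and -0.0343 for the combination against control, against IN10018 and for crizotinib. Without mitochondrially encoded genes in the scale the summed members averaged 3043 CPM in IN10018, 3314 in crizotinib, 3563 in the combination and 3309 in control, and control averaged 2756 CPM on library totals. MRPS26 in the combination against control reversed to -0.12 under the offset, 1 of 9 called members whose sign changed there. The cause of these differences was not tested. Fits with fewer libraries also repeated the filter and the scaling, so the number of libraries was not tested apart from these. With 3 libraries a group, exact tests cannot go below 0.1, and low-count members such as MRPS24 are known only roughly.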
